A study of Mus musculus with 30 samples.

Results

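Gas5, Snhg1, Snhg3, Snhg5, Snhg6, Snhg8 and Snhg12 are noncoding host genes of small nucleolar RNAs (snoRNAs). These 7 genes were taken by name from 49089 Ensembl genes, and 6 of them had enough counts to be tested. Poly(A) RNA was sequenced from 30 libraries of AML12 cells, an immortalized mouse hepatocyte line labelled as hepatocytes, in 8 groups. Control cells received a nonsilencing siRNA, and the other cells were transiently depleted by siRNA of FoxK1 (FoxK1 KD), of FoxK2 (FoxK2 KD) or of both (DKD), the forkhead transcription factors whose role in insulin action the study examined. All cells were starved of serum overnight in DMEM with BSA. Basal cells of each genotype received no insulin (time 0 h in the labels, mock treatment in the protocol), and the insulin groups received 100 nM insulin for 6 h. If the labels hold, insulin and the 6 h of treatment differ together. Insulin effects named below then cannot be told apart from effects of time. There were 4 libraries in each group except Control insulin and DKD insulin, with 3 each. All groups come from 1 cell line. The paper says in general that n counts animals or independent experiments, but does not name these libraries. Whether the libraries of a group were separate cultures is not stated. The p-values therefore measure the spread between these libraries, which may be technical.

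Each host is transcribed as a spliced RNA whose introns carry snoRNAs. The introns are trimmed to mature snoRNAs, which guide the methylation or pseudouridylation of ribosomal and other RNAs in complexes with fibrillarin (box C/D) or dyskerin (box H/ACA). The spliced host RNAs hold only short reading frames. For several of them, Gas5 in particular, ribosomes that read such a frame expose the RNA to nonsense-mediated decay, and they rise in cells whose translation is slowed. Many hosts start with a run of pyrimidines, the 5′ terminal oligopyrimidine type of start shared with ribosomal protein genes, whose translation follows mTOR activity.

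The starts of the hosts are shown to look for this feature, which not all of them have. Each line gives 50 bases of the RefSeq promoter table (GRCm38.p6), 20 before the annotated start and 30 from it on, 5′ to 3′ on the gene's strand, with capitals for the longest run of a C followed by at least 4 C or T that begins within 20 bases of the start. Snhg5 lies on the minus strand of chromosome 9, Gas5 on the plus strand of chromosome 1 (the second of 2 starts is shown), Snhg12 on the plus and Snhg3 on the minus strand of chromosome 4, Snhg8 on the minus strand of chromosome 3, and Snhg1 on the plus strand of chromosome 19.
Snhg5, chr9:88522868-88522917: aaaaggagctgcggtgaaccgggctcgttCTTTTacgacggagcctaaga
Gas5, chr1:161035146-161035195: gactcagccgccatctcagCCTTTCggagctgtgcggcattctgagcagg
Snhg12, chr4:132308658-132308707: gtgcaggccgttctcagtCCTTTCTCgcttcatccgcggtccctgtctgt
Snhg3, chr4:132353657-132353706: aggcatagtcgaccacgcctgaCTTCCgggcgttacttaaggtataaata
Snhg8, chr3:123508307-123508356: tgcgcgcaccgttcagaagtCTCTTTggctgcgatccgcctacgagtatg
Snhg1, chr19:8723467-8723516: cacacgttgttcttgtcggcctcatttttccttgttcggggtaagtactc

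The run started within 2 bases of the annotated start in Gas5 (at the second of its 2 starts), Snhg3, Snhg8 and Snhg12, and 9 bases after it in Snhg5. Over all 32851 RefSeq promoters of the same length, 49.4% held such a run within 20 bases of the start and 5.14% had their longest run within 2 bases of it. The windows of Snhg1 and of the first start of Gas5, which is not printed, held no run that met the rule. Neither the forkhead core TGTTTAC nor its shorter form TGTTTA, which the longer one contains, was found on either strand of the 300 bases of these promoters, and they are present in 3.65% and 13.4% of all promoters. The E-box CACGTG was likewise not found, and is present in 7.15% of all promoters. The FoxK motif that the paper proposes also allows TAAATA, which was not searched for, so absence of that motif was not shown. Snhg6 had no entry in the promoter table.

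GENCODE M21 annotates 29 snoRNAs inside the 7 hosts on the same strand: 10 in Gas5, 8 in Snhg1, 5 in Snhg12, 2 each in Snhg3 and Snhg5, and 1 each in Snhg6 and Snhg8. Some of these entries overlap each other. All 29 are rows of the deposited tables, and 28 of them were listed at 0 counts in all 30 libraries. The exception was Snord87 in Snhg6, with 32 counts in all, spread over 18 libraries. Of the 29 snoRNAs, 26 lie wholly inside exons that the annotation gives the host, because it includes isoforms that keep the introns. How reads that overlap both a snoRNA and its host were counted is not given in the sources used here, so the rows at 0 and the host counts over these stretches may lack such reads. Snord87 and the 2 snoRNAs of Snhg3 are the 3 that do not. The measurements below are therefore of the host RNAs, intron-keeping forms included, and not of mature snoRNAs, which carry no poly(A) tail. The snoRNAs of Snhg5 and Snord87 are printed with the C box (TGATGA) and the D box (CTGA) of this class in capitals (GRCm38, minus strands).
Snord50a, chr9:88521529-88521600: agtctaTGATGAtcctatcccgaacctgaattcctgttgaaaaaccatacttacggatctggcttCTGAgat
Snord50b, chr9:88521797-88521868: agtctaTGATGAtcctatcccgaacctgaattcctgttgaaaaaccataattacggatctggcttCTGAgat
Snord87, chr1:9942463-9942549: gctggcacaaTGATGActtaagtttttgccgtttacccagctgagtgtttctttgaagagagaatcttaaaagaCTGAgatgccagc
Snord50a and Snord50b are 72 bases long and differ at 1 base, C50A, counted from the 5′ end of Snord50a.

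The libraries held 2141460 to 5668270 counts on genes, and 11368 genes were tested with edgeR. Levels are given as CPM, counts per 1000000 counts, on TMM-adjusted library sizes. The knockdowns were seen in the targets: at basal, Foxk1 was at 66.2 to 88.4 CPM in Control, 27.4 to 42.0 in FoxK1 KD and 42.9 to 49.7 in DKD, and Foxk2 was at 133 to 150 CPM in Control, 42.9 to 50.6 in FoxK2 KD and 41.9 to 54.7 in DKD. Foxk2 was also lower in FoxK1 KD than in Control at basal (log2 fold change -0.26, SE 0.08, edgeR adjusted p = 0.0487). In Control cells Foxk1 was lower after insulin than at basal (-0.62, SE 0.13, edgeR adjusted p = 0.00037). Of 10 hepatocyte markers, 8 were tested. Hnf4a was at 89.6 to 152 CPM and Alb at 2.50 to 65.2 CPM. Of 5 cholangiocyte markers, Spp1 (790 to 2050 CPM), Krt19 (323 to 753) and Sox9 (168 to 296) were higher than any hepatocyte marker in the list, Krt7 was at 11.0 to 38.9 CPM, below Hnf4a, and Epcam had 0 counts. Of 5 macrophage markers only Csf1r was tested (1.89 to 21.4 CPM), Ptprc and Cd68 stayed below 3 CPM, Clec4f had 1 count over all libraries and Adgre1 had 0. None of the 5 fibroblast or stellate and 4 endothelial markers was tested. Col1a1 had 48 counts over all libraries, and the other 8 had 0 to 4 each. Control basal replicate 1 had the lowest mean correlation with its own group, 0.970, against 0.979 to 0.989 for the other libraries. Genes were also picked by a rule that placed the DKD basal libraries with the insulin libraries. In 52 of the 11368 genes tested, all 12 basal libraries of Control, FoxK1 KD and FoxK2 KD were lower than all 18 other libraries. In 83 genes they were higher. None of the 6 tested hosts was among these genes. At so small a share of all genes, 0 of 6 says little about the hosts. No other arrangement of the groups was counted, and whether 52 and 83 genes are many was not tested. Whether this arrangement reflects handling or biology was not tested either. By the rule, these genes are apart in DKD against Control at basal. The same holds for insulin against basal in Control, FoxK1 KD and FoxK2 KD.

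Gas5 was the most abundant host, with 100.0 to 192 CPM over the 30 libraries. Snhg1 ranged from 35.3 to 79.5 CPM and Snhg5 from 31.8 to 62.7 CPM. Snhg12 (5.80 to 14.4 CPM), Snhg6 (4.63 to 13.3 CPM) and Snhg8 (1.55 to 6.28 CPM) were low. Per kilobase of annotated exons, the median level over all libraries was 36.3 CPM for Gas5, 28.0 for Snhg5, 19.8 for Snhg1, 7.28 for Snhg6, 4.30 for Snhg8 and 3.78 for Snhg12. Exons cover 100% of the span of Snhg1, Snhg8 and Snhg12, 92.0% of Snhg5 and 91.3% of Gas5, so these values per kilobase are lower than they would be for the spliced form alone.

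The spread between libraries of a group followed the depth of each host. The median coefficient of variation within groups was 6.68% for Gas5 (302 to 796 counts per library), 10.6% for Snhg1 (101 to 363), 10.9% for Snhg5 (89 to 278), 17.6% for Snhg12 (20 to 61), 19.4% for Snhg6 (10 to 55) and 29.9% for Snhg8 (4 to 24). The highest group mean was 1.29 times the lowest for Gas5, 1.36 times for Snhg1, 1.56 times for Snhg5 and Snhg12, 1.57 times for Snhg6 and 1.84 times for Snhg8. When the 8 groups were ordered by mean CPM, neighbouring groups overlapped in all 42 neighbouring pairs of the 6 hosts. Neighbours in such an order are the closest groups by construction. The overlap therefore says nothing about groups further apart in the order, some of which did not overlap (below).

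**Figure D1:**
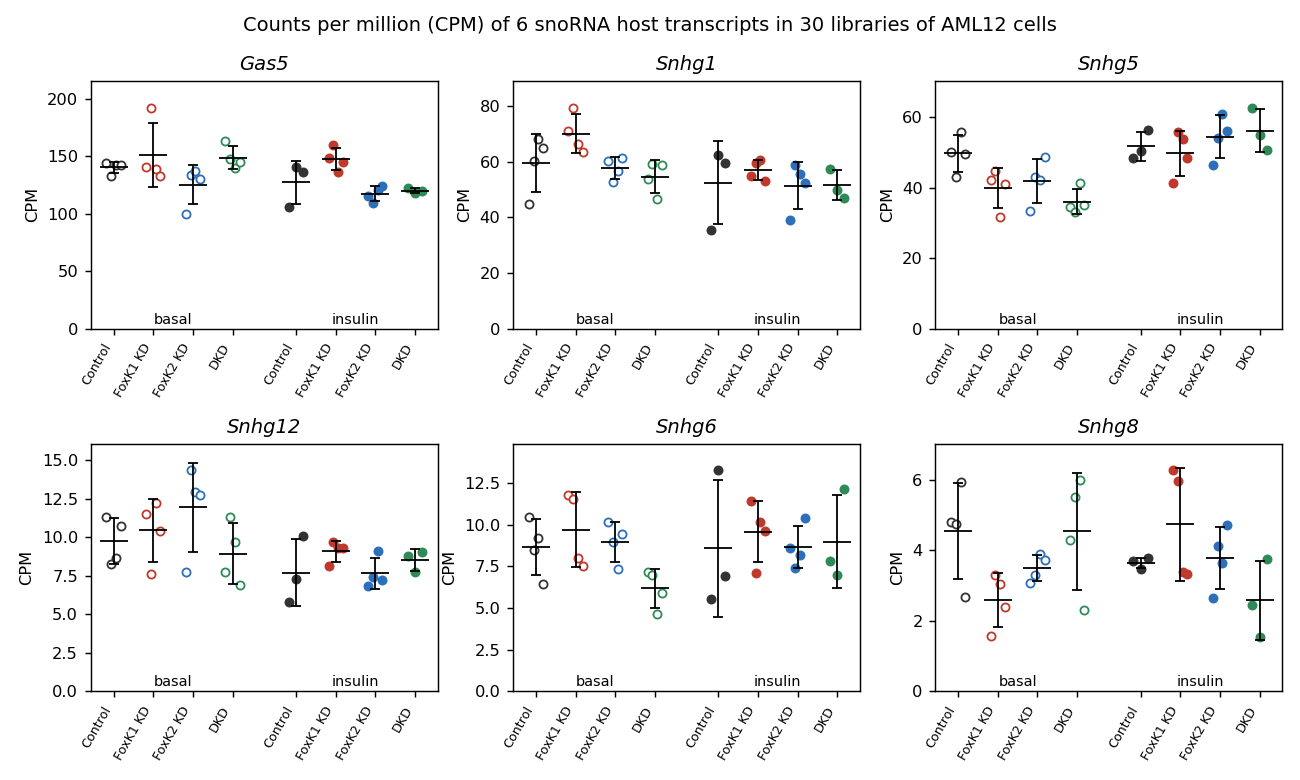
Levels of the 6 tested hosts in CPM (linear axes from 0) by genotype, with open circles for basal and filled circles for insulin libraries; each point is a library and bars are mean ± SD (n = 3 or 4). The 4 DKD basal libraries of Snhg5 (33.2 to 41.2 CPM) sit below the 4 Control basal libraries (43.0 to 55.8 CPM).

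Snhg3 was barely counted. It had 14 counts over the 30 libraries, with 0 in 18 libraries, 1 in 10 and 2 in 2. At these depths a count of 0 allows up to 3 counts, or 0.529 to 1.40 CPM depending on the library, and this limit covers counting error only. Of its 986 exonic bases, 70.2% are shared with exons of Rcc1 or Gm17300, mostly on the opposite strand, and reads in shared exons may not have been assigned to a single gene. No fold change or test is given for Snhg3.

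The first question was whether loss of FoxK1, FoxK2 or both altered the hosts in unstimulated cells. Snhg5, the host of Snord50a and Snord50b, was lower in DKD than in Control, and the other 5 tested hosts did not pass the test there. None of the 6 passed in FoxK1 KD or FoxK2 KD. Over all genes tested, 8.09% were called (edgeR, adjusted p below 0.05) in FoxK1 KD, 0.378% in FoxK2 KD and 21.1% in DKD, so 1 call among 6 hosts in DKD is near the share over all genes. The median log2 fold change of the 6 hosts was 0.11 in FoxK1 KD, -0.10 in FoxK2 KD and -0.13 in DKD, while that of all genes was -0.01, -0.01 and 0.00. The 3 comparisons share the 4 Control libraries.

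Snhg5 was at 50.2, 43.0, 55.8 and 49.6 CPM in the 4 Control basal libraries and at 34.5, 33.2, 41.2 and 34.9 CPM in the 4 DKD basal libraries. All 4 DKD values lay below all 4 Control values. The mean was 35.9 ± 3.58 CPM in DKD against 49.7 ± 5.24 in Control (SD, n = 4 each), and the log2 fold change was -0.48 (SE 0.12, edgeR adjusted p = 0.00467), 0.717 times the Control level. In FoxK1 KD the 4 values were 42.1, 44.6, 31.8 and 40.9 CPM, and in FoxK2 KD they were 33.3, 43.1, 42.1 and 48.6 CPM. Both groups overlapped with Control. Their log2 fold changes were -0.32 (SE 0.12, edgeR adjusted p = 0.0818) in FoxK1 KD and -0.24 (SE 0.12, edgeR adjusted p = 0.432) in FoxK2 KD. In these bulk libraries a lower share of a transcript in every cell cannot be told apart from fewer cells that hold it.

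Across the genes tested, log2 fold changes in DKD against Control were correlated with GC content (Spearman rho 0.477 over 11346 genes, a description since genes do not vary independently). The GC content of Snhg5 is 44.1%. With each library's trend on GC content and length taken out, the log2 fold change of Snhg5 was -0.39 (edgeR adjusted p = 0.0129) and that of Gas5 moved from 0.09 (SE 0.10, edgeR adjusted p = 0.58) to 0.29 (SE 0.10, edgeR adjusted p = 0.0426), so Gas5 was also called there, as higher in DKD. The summed level of the 10 hepatocyte markers was 224 to 238 CPM in Control basal and 255 to 286 CPM in DKD basal libraries. The summed level of the 5 macrophage markers was 8.22 to 12.9 against 15.7 to 18.0 CPM, and that of the 5 fibroblast or stellate markers 0 to 0.357 against 0.574 to 1.39 CPM, while the cholangiocyte sums overlapped (1690 to 2150 against 1690 to 1970 CPM). The fibroblast or stellate sums rest on very few counts, mostly of Col1a1, which had 48 counts over all libraries. The part of any of these marker lists in the result was not tested. Without Control basal replicate 1, the log2 fold change of Snhg5 was -0.48 (edgeR adjusted p = 0.00486).

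Gas5, the growth-arrest transcript that hosts the most snoRNAs of the 7, was at 143.7, 132.8, 142.4 and 142.1 CPM in Control basal and at 163.1, 147.2, 139.7 and 145.1 CPM in DKD basal libraries, which overlap. In FoxK1 KD basal 1 library was at 192 CPM and the other 3 at 132 to 141 CPM. In FoxK2 KD basal 1 library was at 100.0 CPM and the other 3 at 130 to 137 CPM. The log2 fold change of Gas5 against Control was 0.10 (SE 0.10) in FoxK1 KD and -0.16 (SE 0.10) in FoxK2 KD. Without the high library, replicate 2, the FoxK1 KD value was -0.02, so its sign rests on that library.

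Snhg1 hosts the Snord25 to Snord31 cluster, which the annotation lists largely under provisional names. It was at 44.8, 60.3, 68.2 and 64.8 CPM in Control basal and at 71.0, 79.5, 66.3 and 63.4 CPM in FoxK1 KD basal libraries. Control replicate 1 was the lowest of the 4. The log2 fold change was 0.23 (SE 0.13, edgeR adjusted p = 0.302) in FoxK1 KD, -0.05 (SE 0.13) in FoxK2 KD and -0.12 (SE 0.14) in DKD, where it was 0.12 with the GC and length trends taken out. Without Control replicate 1 these were 0.12, -0.15 and -0.23, and the adjusted p was at least 0.189.

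The low hosts were estimated less precisely. Snhg8, the host of Snora24, had 7 to 13 counts per library in FoxK1 KD basal and 15 to 24 in Control basal. Its 4 FoxK1 KD libraries were at 1.58, 3.30, 3.06 and 2.41 CPM, and its 4 Control libraries at 4.82, 4.75, 5.95 and 2.68 CPM, with a log2 fold change of -0.80 (SE 0.31, edgeR adjusted p = 0.0999). Snhg8 was called there, at -1.02 (edgeR adjusted p = 0.0278), when Control replicate 4, the lowest Control library, was left out. Snhg5 was called in FoxK1 KD, at -0.39 (edgeR adjusted p = 0.0401), without Control replicate 2. Snhg6, the host of Snord87, was at 7.18, 6.98, 4.63 and 5.90 CPM in DKD against 10.5, 8.50, 9.18 and 6.43 CPM in Control, with a log2 fold change of -0.43 (SE 0.24, edgeR adjusted p = 0.216). Snhg12, which hosts Snora16a, Snora44, Snora61 and Snord99, had log2 fold changes between -0.15 and 0.31 in the 3 knockdowns (SE 0.18 to 0.20).

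The second question was how the hosts differed between insulin and basal cells of each genotype. In Control cells none of the 6 was called. Snhg5 was higher after insulin than at basal in FoxK1 KD, FoxK2 KD and DKD cells. Snhg8 was also higher after insulin in FoxK1 KD cells, and Snhg12 was lower in FoxK2 KD cells. The counts were 0 of 6 in Control, 2 of 6 in FoxK1 KD, 2 of 6 in FoxK2 KD and 1 of 6 in DKD, and the shares of all genes called were 25.4%, 31.6%, 28.1% and 16.3%. The median log2 fold change of the 6 hosts was -0.17 in Control, -0.02 in FoxK1 KD, -0.07 in FoxK2 KD and -0.07 in DKD, and the median of all genes was within 0.0127 of 0 in each. The signs were mixed in FoxK1 KD, FoxK2 KD and DKD, and in Control 5 of the 6 hosts had a negative fold change, of which Snhg6 (-0.01) turned positive with the GC and length trends taken out.

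**Figure D2:**
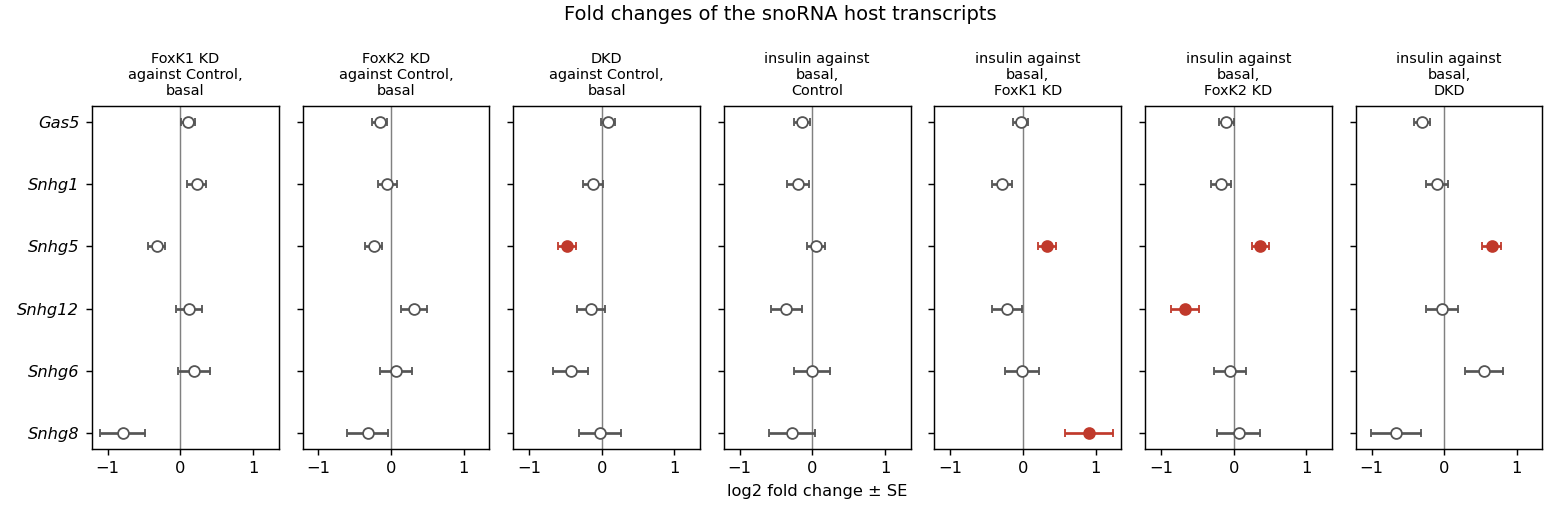
Log2 fold change ± SE (x axis) of the 6 tested hosts (rows) in 7 comparisons (panels), from the edgeR model of all 30 libraries; red filled points have an adjusted p below 0.05. Snhg5 lies at -0.48 in DKD against Control and at 0.32, 0.37 and 0.65 after insulin in FoxK1 KD, FoxK2 KD and DKD.

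Snhg5 was at 48.5, 50.3 and 56.3 CPM in the 3 Control insulin libraries and at 62.7, 54.9 and 50.6 CPM in the 3 DKD insulin libraries. All DKD insulin values lay above all 4 DKD basal values, whereas the Control groups overlapped. In DKD the mean was 56.1 ± 6.11 CPM after insulin (SD, n = 3) against 35.9 ± 3.58 at basal (SD, n = 4), with a fitted log2 fold change of 0.65 (SE 0.13, edgeR adjusted p = 0.000521). In Control cells the log2 fold change was 0.06 (SE 0.13, edgeR adjusted p = 0.79), with a 95% interval of -0.19 to 0.30. Marker sums moved with insulin as well. Most counts of the macrophage list come from Csf1r and most of the cholangiocyte list from Spp1, so these sums largely follow single genes. The hepatocyte sums were 224 to 238 CPM at basal and 254 to 285 after insulin in Control. They were 204 to 250 and 250 to 303 in FoxK1 KD, and overlapped in FoxK2 KD and DKD. In DKD the macrophage markers went from 15.7 to 18.0 CPM at basal to 6.63 to 9.51 after insulin, and the cholangiocyte markers from 1690 to 1970 to 2060 to 2720 CPM. In FoxK1 KD these sums were 17.7 to 22.1 and 1340 to 1740 CPM at basal against 10.5 to 13.7 and 2060 to 2310 after insulin, and in FoxK2 KD 11.1 to 13.4 and 1960 to 2230 against 4.09 to 6.61 and 2320 to 2820. In Control, where Snhg5 was not called, the macrophage sums were also apart (8.22 to 12.9 against 4.09 to 6.33 CPM) and the cholangiocyte sums overlapped. The part of these markers in the results for Snhg5, Snhg8 and Snhg12 was not tested.

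In FoxK1 KD cells the insulin libraries held Snhg5 at 41.4, 55.6, 53.8 and 48.3 CPM, of which the lowest fell within the basal range of 31.8 to 44.6 CPM. The log2 fold change was 0.32 (SE 0.12, edgeR adjusted p = 0.0427). The call was lost without basal replicate 3 or 4 or without insulin replicate 2, 3 or 4, and with the replicate number as a block (adjusted p = 0.0502). In FoxK2 KD cells the insulin libraries were at 46.5, 54.2, 61.0 and 56.1 CPM, also overlapping with basal. The log2 fold change was 0.37 (SE 0.12, edgeR adjusted p = 0.0175), and the call was lost without basal replicate 1 (0.27) or insulin replicate 3 (0.31).

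Both DKD results for Snhg5 kept their calls whichever library was left out. They share the DKD basal libraries, as does the difference in insulin effect given below, so they are not independent results. Leaving out each library of the groups compared in turn gave log2 fold changes of -0.54 to -0.42 in DKD against Control at basal, called in 8 of 8 fits, and of 0.56 to 0.73 for insulin in DKD, called in 7 of 7 fits. The range was 0.22 to 0.40 for insulin in FoxK1 KD, called in 3 of 8 fits, and 0.27 to 0.45 in FoxK2 KD, called in 6 of 8 fits. Insulin fold changes over all genes also followed GC content (Spearman rho 0.34 in FoxK1 KD, 0.246 in FoxK2 KD and -0.219 in DKD). With the GC and length trends taken out, Snhg5 was at 0.38, 0.44 and 0.61 (edgeR adjusted p = 0.00847, 0.0015 and 0.000245).

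**Figure D3:**
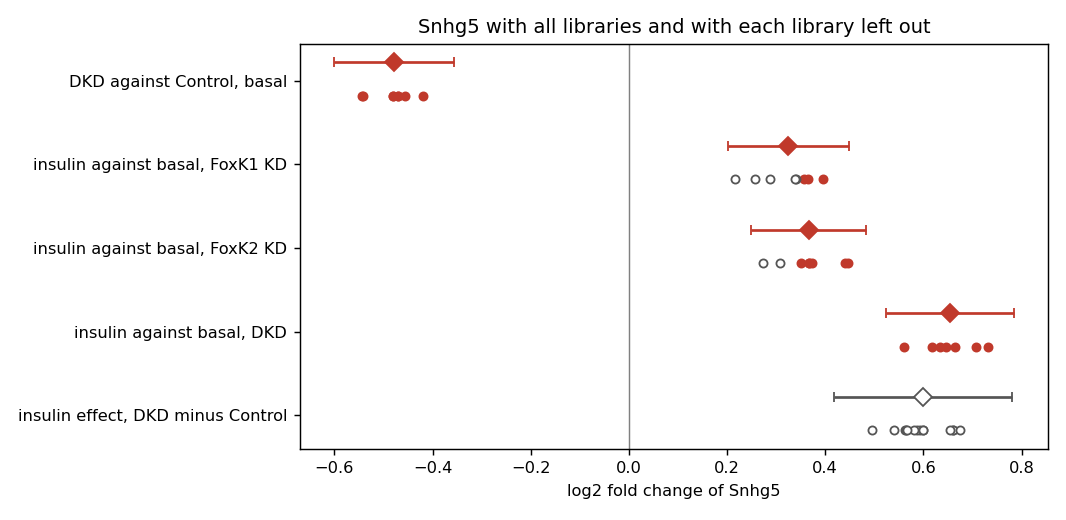
Log2 fold change of Snhg5 (x axis) in 5 comparisons (rows), with all libraries (diamonds, ± SE) and with each library of the groups compared left out (circles); red filled symbols have an adjusted p below 0.05. Values stay between -0.54 and -0.42 in DKD against Control at basal and between 0.56 and 0.73 for insulin in DKD.

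After insulin no difference of Snhg5 between a knockdown and Control passed the test. Against Control insulin its log2 fold change was -0.05 (SE 0.13) in FoxK1 KD, 0.07 (SE 0.13) in FoxK2 KD and 0.12 (SE 0.13, 95% interval -0.14 to 0.38) in DKD. None of the 6 hosts was called in these 3 comparisons, in which 3.59%, 0.0264% and 1.21% of all genes were called. Without adjustment, 1995, 685 and 1449 genes had a p under 0.05, and the smallest unadjusted p of a host was 0.0642, for Gas5 in FoxK1 KD. With DESeq2 and with limma-voom the count of hosts called was also 0 in each. Of 11368 genes, DESeq2 called 469, 4 and 179 and limma-voom 399, 3 and 119.

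The third question was whether the insulin effect itself differed from that in Control. The difference for Snhg5 in DKD was 0.60 on the log2 scale (SE 0.18, unadjusted p = 0.00226 and adjusted p = 0.0827 from edgeR), with a 95% interval of 0.24 to 0.96. It did not pass the threshold, and leaving out libraries gave 0.49 to 0.68 with adjusted p of 0.0504 to 0.213. Among the alternatives judged at an adjusted p below 0.05, it was called only when every gene with 1 count in any library was kept (0.62, edgeR adjusted p = 0.0467). Over all genes the DKD difference followed GC content (Spearman rho -0.31). With the GC and length trends taken out it was 0.51 for Snhg5 (edgeR adjusted p = 0.102). The difference for Snhg5 was 0.27 (SE 0.18) in FoxK1 KD and 0.31 (SE 0.17) in FoxK2 KD. No host was called in the 3 interaction tests, in which 0%, 0% and 1.54% of all genes were called (FoxK1 KD, FoxK2 KD and DKD), with 1519, 625 and 1661 genes at an unadjusted p under 0.05. DESeq2 and limma-voom also called no host. Of 11368 genes, DESeq2 called 11, 0 and 228 in these tests and limma-voom 0, 0 and 168.

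In DKD cells Gas5 had an insulin fold change of the opposite sign to Snhg5. It was at 122.7, 118.0 and 119.8 CPM after insulin, below all 4 basal values, with a log2 fold change of -0.31 (SE 0.11, edgeR adjusted p = 0.0501), just outside the threshold. It was called without DKD basal replicate 3 (-0.34, edgeR adjusted p = 0.0478), with DESeq2 (-0.31, adjusted p = 0.043), and at -0.41 (edgeR adjusted p = 0.00826) with the GC and length trends taken out. In the other genotypes the insulin log2 fold change of Gas5 was -0.14 (SE 0.11) in Control, -0.03 (SE 0.10) in FoxK1 KD and -0.10 (SE 0.10) in FoxK2 KD, and the values in FoxK1 KD and FoxK2 KD were above 0 with those trends taken out. The difference between DKD and Control was -0.17 (SE 0.15, edgeR adjusted p = 0.678). Control insulin replicate 1 was the lowest of its group, at 106.0 CPM against 140.3 and 136.1. Without it the value in Control was -0.03 and the difference between DKD and Control -0.28 (SE 0.15, edgeR adjusted p = 0.428).

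Snhg8 in FoxK1 KD cells was at 6.28, 5.97, 3.39 and 3.34 CPM after insulin, all above the basal values of 1.58 to 3.30 CPM. The gap between the groups was small, and the libraries held 8 to 17 counts after insulin and 7 to 13 at basal. The log2 fold change was 0.91 (SE 0.33, edgeR adjusted p = 0.0337), and it lost the call in 4 of 8 fits that left out a library (without basal replicate 1 or 4, or insulin replicate 1 or 2; 0.71 to 0.88) and with the GC and length trends taken out (0.81, edgeR adjusted p = 0.0628). In DKD cells Snhg8 was at 2.44, 1.55 and 3.76 CPM after insulin and 4.31, 5.53, 6.01 and 2.31 CPM at basal, with a log2 fold change of -0.66 (SE 0.35, edgeR adjusted p = 0.193).

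Snhg12 in FoxK2 KD cells was at 6.83, 7.43, 9.10 and 7.24 CPM after insulin and at 7.72, 14.4, 13.0 and 12.8 CPM at basal. The log2 fold change was -0.67 (SE 0.19, edgeR adjusted p = 0.00782). Basal replicate 1 lay within the insulin range, and the call was kept in 8 of 8 fits that left out a library (-0.82 to -0.59). The difference from the insulin effect in Control (-0.36, SE 0.22) was -0.32 (SE 0.29, edgeR adjusted p = 0.923).

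Snhg6 in DKD cells was at 7.80, 6.96 and 12.2 CPM after insulin, and its log2 fold change was 0.55 (SE 0.26, edgeR adjusted p = 0.149). Without insulin replicate 3, the highest, it was 0.24 (SE 0.30, edgeR adjusted p = 0.661). In Control, FoxK1 KD and FoxK2 KD it was between -0.05 and -0.01, with signs that changed under several alternatives. Snhg1 had a negative insulin fold change in all 4 genotypes, from -0.29 (SE 0.14, edgeR adjusted p = 0.102) in FoxK1 KD to -0.10 (SE 0.15) in DKD, and none was called. In FoxK1 KD all 4 insulin libraries (55.0, 59.7, 60.5 and 53.1 CPM) lay below all 4 basal libraries. In Control the value rested on insulin replicate 1, the lowest library at 35.3 CPM against 62.6 and 59.4 for the other two: without it the log2 fold change was 0.02 instead of -0.20.

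The thresholds of the study were looser, a false discovery rate below 0.25 and, for insulin effects, a fold change above 1.5 as well. At an adjusted p below 0.25, Snhg5 and Snhg8 were called in FoxK1 KD against Control at basal (26.6% of all genes), Snhg5 and Snhg6 in DKD (43.6%), and Snhg12 for insulin in Control (46.6%). For insulin, Snhg1, Snhg5 and Snhg8 were called in FoxK1 KD (54.0%), Snhg5 and Snhg12 in FoxK2 KD (49.5%), and Gas5, Snhg5, Snhg6 and Snhg8 in DKD (37.3%). The difference in insulin effect of Snhg5 between DKD and Control was called as well (9.88% of all genes). With the fold change minimum added, Snhg8 was left in FoxK1 KD at basal (3.60% of all genes) and no host in DKD at basal (7.60%). For insulin, Snhg8 was left in FoxK1 KD (12.9%), Snhg12 in FoxK2 KD (10.7%), and Snhg5 and Snhg8 in DKD (8.49%). The difference for Snhg5 in DKD was kept (4.04%).

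Other noncoding snoRNA hosts were examined as the nearest comparison. Of 15 listed, 8 were tested. With insulin, Zfas1 and 2410006H16Rik fell in all 4 genotypes and Epb41l4aos fell in Control, FoxK2 KD and DKD. Zfas1, the host of Snord12 family snoRNAs, fell by 0.68 (SE 0.15) on the log2 scale in Control and by 1.21 (SE 0.15) in DKD, and 2410006H16Rik fell by 1.04 (SE 0.18) and 1.05 (SE 0.18). Epb41l4aos fell by 1.54 (SE 0.30) in Control, with 45 to 83 counts per library at basal and 10 to 26 after insulin. Their adjusted p from edgeR in Control were 0.000905, 3.62e-05 and 0.000207. Snhg16 rose in FoxK2 KD, by 0.91 (SE 0.30), with 9 to 14 counts per library at basal and 16 to 24 after insulin. At basal in DKD, Zfas1 was higher than in Control (0.44, SE 0.13, edgeR adjusted p = 0.0132) and Snhg14, the long host RNA of the Snord115 and Snord116 clusters, was lower (-0.86, SE 0.21, edgeR adjusted p = 0.00348). These were the 2 called of 8 there, beside 21.1% of all genes. The median log2 fold change of the 8 with insulin was -0.17 in Control, 0.27 in FoxK1 KD, -0.07 in FoxK2 KD and 0.08 in DKD.

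**Figure D4:**
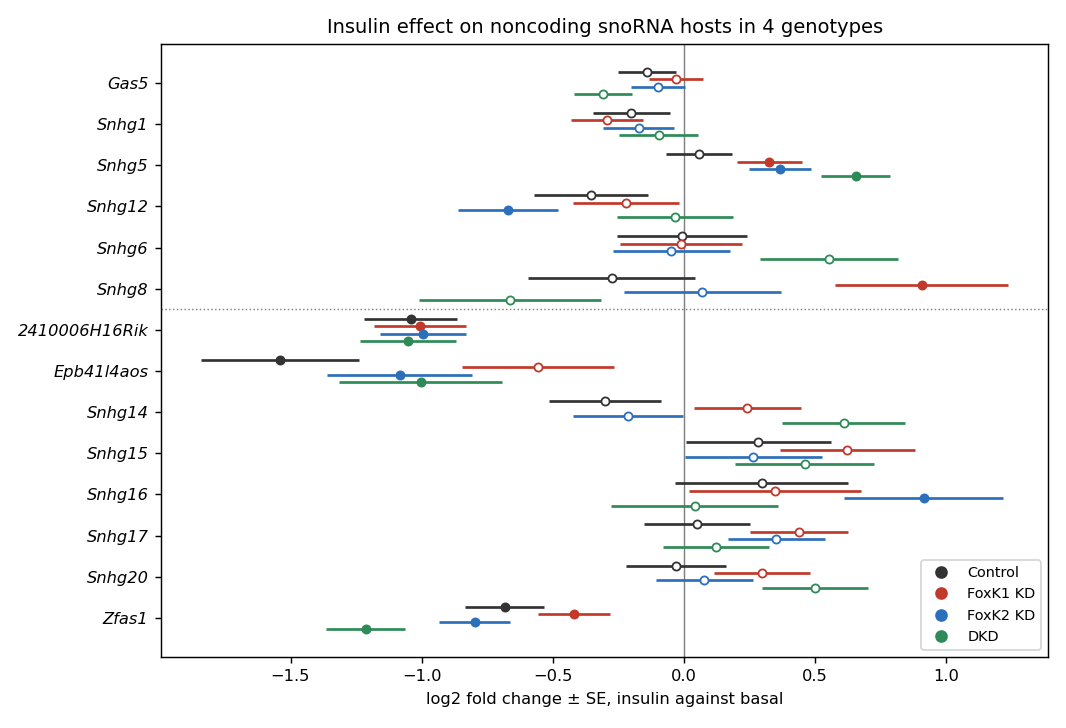
Log2 fold change ± SE for insulin against basal (x axis) of the 6 hosts (above the dotted line) and the 8 other noncoding snoRNA hosts tested (below it) in 4 genotypes (colours); filled points have an adjusted p below 0.05. 2410006H16Rik lies between -1.05 and -0.99 in all 4 genotypes, while Snhg5 runs from 0.06 in Control to 0.65 in DKD.

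Counts of called genes in the lists that follow stand beside 21.1% of all genes called in DKD against Control at basal, and 25.4%, 31.6%, 28.1% and 16.3% for insulin in Control cells and in the FoxK1 KD, FoxK2 KD and DKD cells. Of 28 protein-coding snoRNA hosts, mostly ribosomal protein and translation factor genes, all were tested. At basal in DKD 3 were higher and 3 lower than in Control, a share near that of all genes, among them Rpl7a (0.38, SE 0.12) and Rpsa (0.36, SE 0.13) higher, and Rps12 (-0.62, SE 0.14) and Ncl, which encodes nucleolin (-0.58, SE 0.09), lower. With insulin 2 rose and 8 fell in Control, 4 rose and 5 fell in FoxK1 KD, 1 rose and 10 fell in FoxK2 KD, and 0 rose and 9 fell in DKD, with medians of -0.16, -0.01, -0.23 and -0.30. In Control, Rps12 fell by 0.99 (SE 0.15) and Rpl27a by 0.81 (SE 0.17), while Rpl21 rose by 0.66 (SE 0.18) and Hspa8, the constitutive HSP70 chaperone, by 0.34 (SE 0.09). Ribosomal protein genes have near-identical pseudogene copies, so their counts are uncertain.

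Of 16 genes for snoRNP proteins and their assembly, 3 were lower in DKD than in Control at basal, among them Naf1 (-0.63, SE 0.15) and Shq1 (-0.44, SE 0.16), both assembly factors of the box H/ACA complex. With insulin, 1 rose and 2 fell in Control, 6 rose in FoxK1 KD, 2 rose in FoxK2 KD and 2 fell in DKD. In Control, Nolc1, a nucleolar chaperone of snoRNPs, rose by 0.43 (SE 0.09), and Znhit6 (-0.50, SE 0.18) and Shq1 (-0.47, SE 0.17) fell. Of 16 genes for nonsense-mediated decay, 3 were higher and 2 lower in DKD at basal. They included Rnps1 (0.72, SE 0.23), Upf3a (0.48, SE 0.15), Upf3b (-0.47, SE 0.13) and Smg1, a kinase of Upf1 (-0.41, SE 0.12). With insulin in Control, Smg5 (0.55, SE 0.08) and Upf1, the central helicase of the pathway (0.53, SE 0.11), rose and Upf3b (-0.52, SE 0.14) fell. Smg5 rose in all 4 genotypes.

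The genes whose log2-CPM followed a host most closely over the 30 libraries were protein-coding in all cases, and these correlations are a description. They were Mtch2 (Pearson r 0.819), Tfdp1 (0.800) and Spcs2 (0.792) for Snhg5, Cdh2 (0.773), Cul4b (0.729) and Stxbp4 (0.726) for Snhg1, and Rabl2 (0.744), Ssbp1 (0.697) and Arhgef25 (0.687) for Gas5. For Snhg6 the closest was Bloc1s2 (0.669), for Snhg12 Rnf149 (0.652) and for Snhg8 Rnf219 (0.644). Between pairs of the 6 hosts r ran from -0.202 (Gas5 and Snhg5) to 0.495 (Gas5 and Snhg1). All libraries share the treatments and the differences in depth described above, so these values mix group and library differences.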

How the data were processed

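RNA from AML12 cells was measured by RNA-seq in 30 libraries of 8 groups (4 genotypes, basal or insulin). The NEBNext mRNA kit was used for the libraries, and the sequencer was an Illumina HiSeq. The submitters' processing notes name CASAVA 1.8, STAR 2.4.2a, featureCounts and the build GRCm38.p4. Strand settings and annotation are not given in the sources used here. The authors deposited whole-number counts per Ensembl gene, without normalization, in 1 table per library. Without strand, reads of overlapping genes on opposite strands cannot be told apart.

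Identifiers were matched without version to GENCODE M21 (48349 of 49089), and Snhg16 was found through a RefSeq synonym. Counts were fitted with edgeR 4.0.16 (filterByExpr, TMM, 1 model of the 8 groups, glmQLFTest, Benjamini-Hochberg over the 11368 genes tested, threshold 0.05). The SE is the absolute log2 fold change over the square root of F. CPM used TMM-adjusted library sizes, and log2-CPM a prior count of 2. Alternatives used DESeq2 1.42.0 and limma 3.58.1 in R 4.3.3. The model was tested on simulated data. No pair of libraries in a group agreed within sampling noise (over 42 pairs, chi-square per degree of freedom was at least 1.75).

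The 7 hosts and the lists were chosen with earlier results of these data known. All hosts, Foxk1 and Foxk2 were named by rule, and from each list the 2 called genes with the largest change in each direction in DKD against Control at basal and in insulin against basal in Control. Snhg16 was named after its values were seen, and so were Zfas1 for insulin in every genotype and Smg5, 2410006H16Rik and Epb41l4aos outside those 2 comparisons. The 3 genes most correlated with each host were also taken by rule.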

Additional observations from a re-analysis of the deposited data

Results flagged for a closer look

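Outlying libraries were sought in each group of 4 samples for each of the 6 tested hosts (36 groups). A host's value was singled out when its gap to the nearest other library exceeded Dixon's 95% critical share of the group's range, which chance does in about 1 in 20 groups, and 2 values met this. Gas5 in Control basal replicate 2 was at 133 CPM against 142 to 144 CPM in the other 3 libraries. Gas5 in FoxK1 KD basal replicate 2 was at 192 CPM against 132 to 141 CPM.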

How the results depend on the processing

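Of 1240 log2 fold changes of single hosts recomputed under the alternatives, 1127 kept direction and side of the threshold, 15 lost and 11 gained a call, and 87 changed sign. The sign changes fell on 32 of the 78 values. None of them was called with all libraries or under the alternative (adjusted p at least 0.439), and 85 of the 87 were of values within 1 SE of 0. The values that changed sign when 1 library was left out ran over these ranges: Gas5 -0.019 to 0.16 for FoxK1 KD at basal, Snhg1 -0.15 to 0.017 and Snhg6 -0.071 to 0.18 for FoxK2 KD at basal, Snhg8 -0.25 to 0.23 for DKD at basal, Snhg1 -0.34 to 0.018, Snhg5 -0.0062 to 0.12 and Snhg6 -0.44 to 0.24 for insulin in Control. Further ranges were Gas5 -0.087 to 0.089 and Snhg6 -0.12 to 0.11 for insulin in FoxK1 KD, Snhg6 -0.14 to 0.017 and Snhg8 -0.048 to 0.23 for insulin in FoxK2 KD, Snhg12 -0.15 to 0.12 for insulin in DKD, Snhg1 -0.097 to 0.26, Snhg5 -0.11 to 0.013 and Snhg6 -0.075 to 0.61 for FoxK1 KD after insulin. The last were Snhg1 -0.26 to 0.11, Snhg6 -0.23 to 0.47, Snhg8 -0.094 to 0.18 and Snhg12 -0.19 to 0.22 for FoxK2 KD after insulin, Snhg1 -0.24 to 0.12, Snhg6 -0.19 to 0.56 and Snhg12 -0.0087 to 0.40 for DKD after insulin, Gas5 -0.008 to 0.22, Snhg1 -0.32 to 0.034, Snhg6 -0.26 to 0.42 and Snhg12 -0.048 to 0.35 for the FoxK1 KD difference in insulin effect, Gas5 -0.077 to 0.10, Snhg1 -0.20 to 0.16 and Snhg6 -0.30 to 0.39 for the FoxK2 KD difference in insulin effect, Snhg1 -0.11 to 0.24 for the DKD difference in insulin effect. With the GC and length trends taken out the values of the other sign were Snhg1 0.12 for DKD at basal, Snhg6 0.046 for insulin in Control, Gas5 0.11 and Snhg6 0.054 for insulin in FoxK1 KD, Gas5 0.0044 and Snhg6 0.045 for insulin in FoxK2 KD, Snhg1 0.027 for DKD after insulin, Snhg6 0.0085 for the FoxK1 KD difference in insulin effect, Snhg1 -0.097 for the DKD difference in insulin effect. With at least 10 counts in every library the values of the other sign were Snhg6 0.0027 for insulin in Control. With limma-voom the values of the other sign were Snhg6 0.0062 for insulin in FoxK1 KD, Snhg1 0.0053, Snhg8 -0.018 and Snhg12 0.023 for FoxK2 KD after insulin, Snhg1 0.033 for DKD after insulin, Snhg6 0.083 for the FoxK1 KD difference in insulin effect, Snhg6 0.034 for the FoxK2 KD difference in insulin effect. With the replicate block the values of the other sign were Snhg12 0.0048 for FoxK2 KD after insulin, Snhg1 0.0065 for DKD after insulin, Snhg6 0.031 for the FoxK1 KD difference in insulin effect. Leaving out 1 library gave 0 to 1 hosts called in FoxK1 KD at basal, 0 to 2 for insulin in FoxK1 KD, 1 to 2 in FoxK2 KD and 1 to 2 in DKD. For insulin in FoxK1 KD 1 host was called instead of 2 with at least 10 counts in every library, with 1 count in any library, with the GC and length trends taken out and with the replicate block, where Snhg5 was at an adjusted p of 0.0502. In that order, 3395 of 9623, 3315 of 23784, 3325 of 11368 and 3512 of 11368 genes were called. With the trends taken out 2 hosts were called in DKD at basal, beside 1743 of 11368 genes. For insulin in DKD 2 were called, not 1, with DESeq2, at least 10 counts in every library, the trends taken out or only the compared groups fitted. All genes called there were 1750 of 11368, 1797 of 9623, 1985 of 11368 and 2359 of 10816. For the DKD difference in insulin effect 1 was called with 1 count in any library, beside 359 of 23784 genes. At an adjusted p below 0.25 the counts were 2 (FoxK1 KD basal), 2 (DKD basal), 1 (insulin in Control), 3 (insulin in FoxK1 KD), 2 (insulin in FoxK2 KD), 4 (insulin in DKD) and 1 (DKD difference). With a fold change above 1.5 as well they were 1, 0, 1 (insulin in FoxK1 KD), 1 (insulin in FoxK2 KD), 2 (insulin in DKD) and 1. Apart from the thresholds and filters themselves, the cause was not tested. Pooled over all pairs of groups, samples with the same replicate number deviated together no more than others (mean r -0.0134 over 99 pairs, 8 above 0.1). The numbers were therefore taken only as names, and the replicate block changed no other call. Both checks pool all genotypes, so a pairing of basal with insulin libraries within a genotype was not tested. Without TMM all 48 group levels moved by less than 1 SD, and the highest or lowest group changed for 3 of 6 hosts. Snhg8, at 4 to 24 counts per library, and Snhg3 are limited by depth.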
